A study of Rattus norvegicus with 18 samples.

Results

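The 10 genes described here are Slc2a1, Hk1, Pfkp, Aldoa, Aldoc, Tpi1, Pgk1, Eno2, Ldha and Ldhb, which take glucose into brain cells and break it down to pyruvate and lactate, out of 14218 genes named on the array. They were taken as every probe set whose only gene symbol in the platform's annotation was one of these names. That gave 16 of 31099 probe sets, of which 3 were control probe sets for hexokinase. Total RNA of rat brain had been hybridised to 18 Affymetrix arrays, 3 for each combination of region and treatment. The treated groups were the amygdala, hippocampus and cortex of rats under chronic immobilization stress, and the controls were the same 3 regions of handled rats. Region and treatment were read from the array titles and descriptions, because a further label named the amygdala for all 18 arrays. Nothing in the labels tells separate animals from pools or repeat hybridisations within a group. Nor do the labels tell whether the 3 regions of a treatment came from the same rats, and all 18 arrays were fitted as independent. Each p-value therefore measures the spread between arrays alone, and that spread may be technical.

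Glycolysis splits glucose into pyruvate and yields ATP without oxygen, and lactate dehydrogenase interconverts pyruvate and lactate. Brain tissue runs almost wholly on glucose from the blood. Astrocytes are often described as glycolytic and releasing lactate, and neurons as taking up lactate and oxidising it. Several of these enzymes exist as isoforms that differ between cell types. Because bulk tissue was measured, fewer cells of a type and less RNA per cell cannot be told apart in any of these values.

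All values are fluorescence intensities in arbitrary units, which the authors had scaled to a common trimmed mean of about 150.04 per array. Array medians lay between 49.07 and 56.4. The mean rank correlation between an array and its group's other arrays lay between 0.934 and 0.969, lowest for hippocampus handled 1 (0.934) and amygdala stress 1 (0.935), and results that change without these arrays are named below. Markers of neurons, astrocytes and oligodendrocytes were present, with 14 of 14, 13 of 13 and 11 of 11 of those on the array bright enough to test. A probe set was tested if its mean log2 intensity lay at or above the 40th percentile, which 18625 probe sets did. Of the 13 ordinary probe sets of the 10 genes, 11 were tested, with at least 1 for every gene. The other 2, Hk1 1398725_at and Pgk1 1368906_at, were dim, with mean intensities of 13.64 and 4.121, and are described by these means alone. The tested probe sets were bright, from the 86.7th percentile of all probe sets for Slc2a1 to the 99.9th for Aldoa. The shares of all tested probe sets given below were not matched for this brightness. Differences are given on the log2(intensity + 16) scale with the standard error (SE) from limma, and a difference was called when its adjusted p, over the 18625 probe sets, was under 0.05.

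Stress changed none of these genes past the threshold within a single region, and Ldha alone when the 3 regions were averaged. In the amygdala 0 of 11 probe sets passed, where 2.4% of all tested probe sets did, and the lowest adjusted p by limma was 0.0987, for Eno2. In the hippocampus 0 of 11 passed (0.36% of all), with a lowest adjusted p of 0.231, for Ldha. In the cortex 0 of 11 passed (0.403% of all), with a lowest adjusted p of 0.372, for Hk1. At an unadjusted p under 0.05 there were 3, 2 and 2 probe sets in the amygdala, hippocampus and cortex. The 95% intervals of these differences, each taken alone, all lay between -0.22 and 0.33 on the log2 scale.

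**Figure D1:**
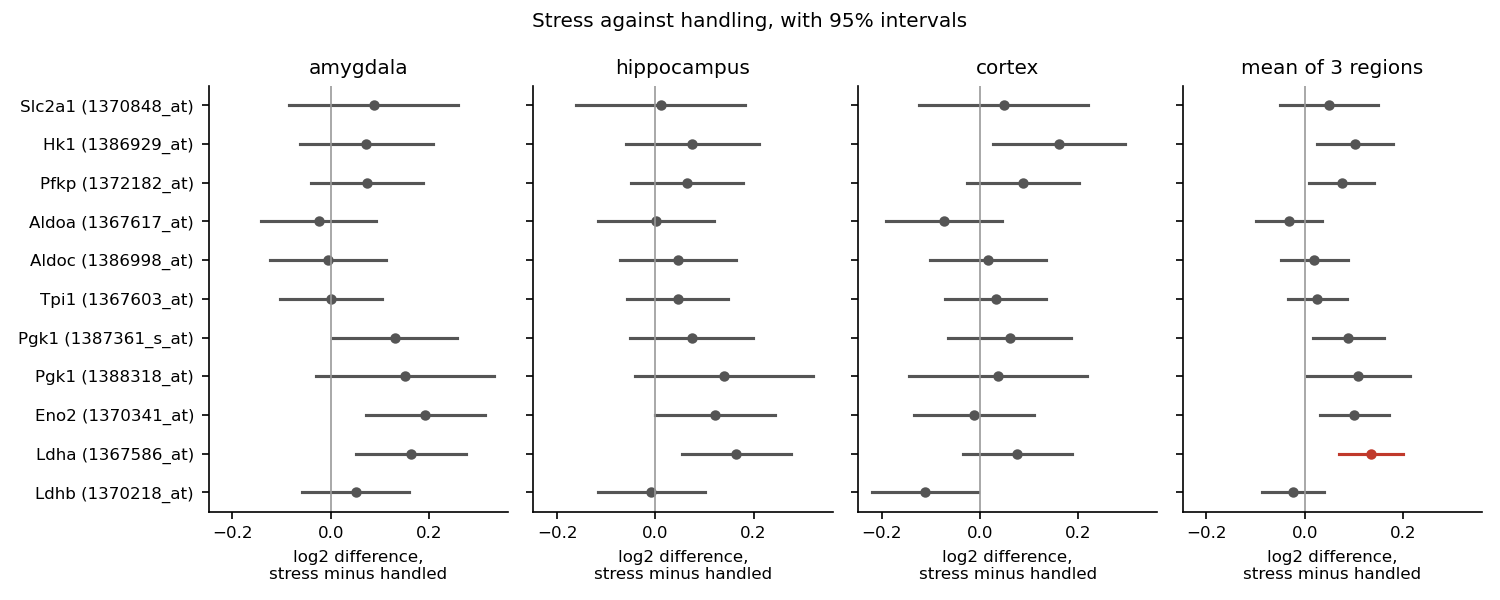
Log2 difference in intensity, stress minus handled, for the 11 tested probe sets (rows) in amygdala, hippocampus, cortex and averaged over the 3 regions, with 95% intervals from limma; red marks an adjusted p under 0.05. Only Ldha averaged over the regions is red, at 0.14.

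Averaged over the 3 regions, 1 of 11 probe sets passed, against 4.66% of all tested probe sets in either direction and 1.59% that were higher under stress. That probe set was Ldha, at 0.14 ± 0.031 (SE, adjusted p = 0.0118 by limma). A further 5 reached an unadjusted p under 0.05 without passing, among them Eno2 at 0.10 ± 0.034 (adjusted p = 0.0964) and Hk1 at 0.10 ± 0.038 (adjusted p = 0.130). Without amygdala stress 1 and hippocampus handled 1 both of these passed as well, Eno2 at 0.12 (adjusted p = 0.0493) and Hk1 at 0.13 (adjusted p = 0.0278). For 7 of 11 probe sets (63.6%) the difference was above 0 in all 3 regions, against 18.5% of all tested probe sets. The members' median difference was 0.074 in the amygdala, 0.065 in the hippocampus and 0.037 in the cortex, where the median of all tested probe sets was 0.0094, 0.0031 and 0.0012. The members share arrays, and some correlate with each other within groups (r between -0.454 and 0.734, median 0.142), so these shares carry no test.

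Slc2a1, the transporter GLUT1 that carries glucose across the endothelium of the blood-brain barrier and into glia, was the dimmest and least ordered of the tested genes. It read 373.3, 370.0 and 423.8 on amygdala stress arrays, against 405.4, 359.3 and 332.2 on amygdala handled arrays. In the hippocampus it read 347.1, 352.9 and 349.2 under stress, against 365.7, 364.5 and 313.1 in handled rats. In the cortex it read 362.8, 343.2 and 370.1 under stress, against 351.1, 339.5 and 348.4 in handled rats. The groups overlapped in each region. The averaged stress difference was 0.049 ± 0.048 (95% interval -0.050 to 0.15, adjusted p = 0.643 by limma), and 64.2% of its variance on the log2 scale lay between arrays of the same group.

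Slc2a1 also passed in none of the 3 comparisons between regions. Its median over 6 arrays was 371.6 in the amygdala (332.2 to 423.8), 351.1 in the hippocampus (313.1 to 365.7) and 349.7 in the cortex (339.5 to 370.1), and neighbouring regions in this order did not differ beyond their spread. The amygdala minus hippocampus difference was 0.11 ± 0.059 (adjusted p = 0.158 by limma). Of all tested probe sets, 21.8% were higher in amygdala than in hippocampus and 18.2% lower. Of the 15 endothelial markers tested, 11 were higher in amygdala than in hippocampus and 0 lower. Their summed intensity ran from 2690 to 3068 on amygdala stress arrays and from 2713 to 2819 on amygdala handled arrays, against 2117 to 2167 on hippocampus stress arrays and 2098 to 2232 on hippocampus handled arrays. The part of endothelial cells in the Slc2a1 values was not tested.

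Hk1, the hexokinase that traps glucose as glucose 6-phosphate and the main form of the enzyme in brain, had its clearest separation in the cortex. There it read 1145, 1200 and 1240 on stress arrays, against 1072, 1102 and 1028 on handled arrays. All 3 stress arrays lay above all 3 handled arrays, and the difference of 0.16 ± 0.065 had an adjusted p of 0.372 by limma. Hk1 was one of 3 probe sets whose stress arrays lay wholly above the handled ones in the cortex, with Ldha and Pfkp, where 12.1% of all tested probe sets did so. In the amygdala Hk1 read 1063, 1187 and 1300 under stress, against 1127, 1135 and 1100 in handled rats, and in the hippocampus 997.8, 1079 and 1110 under stress, against 1022, 993 and 1004 in handled rats. Amygdala stress 1, an array of low correlation with its group, held the lowest of these stress values in the amygdala. Without it the averaged stress difference of Hk1 was 0.13, with an adjusted p of 0.0236 by limma.

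The 3 control probe sets for hexokinase, which read the 3′ end, the middle and the 5′ end of the transcript, serve as a check on RNA length. None passed for stress in a single region or averaged over the regions. The 3′ minus 5′ difference on the log2 scale was 1.40 ± 0.070 in amygdala stress arrays, against 0.91 ± 0.081 in amygdala handled arrays (SD, n = 3 each). The arrays did not overlap: the lowest stress array was at 1.32 and the highest handled array at 0.99. It was 1.30 ± 0.18 in hippocampus stress arrays, against 1.12 ± 0.12 in hippocampus handled arrays, and 1.38 ± 0.13 in cortex stress arrays, against 1.21 ± 0.11 in cortex handled arrays. For GAPDH, another control read at both ends, it was 0.45 ± 0.077 in amygdala stress arrays, against 0.45 ± 0.044 in amygdala handled arrays. The GAPDH values of the groups overlapped. The part of RNA length in the values given here was not tested.

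**Figure D2:**
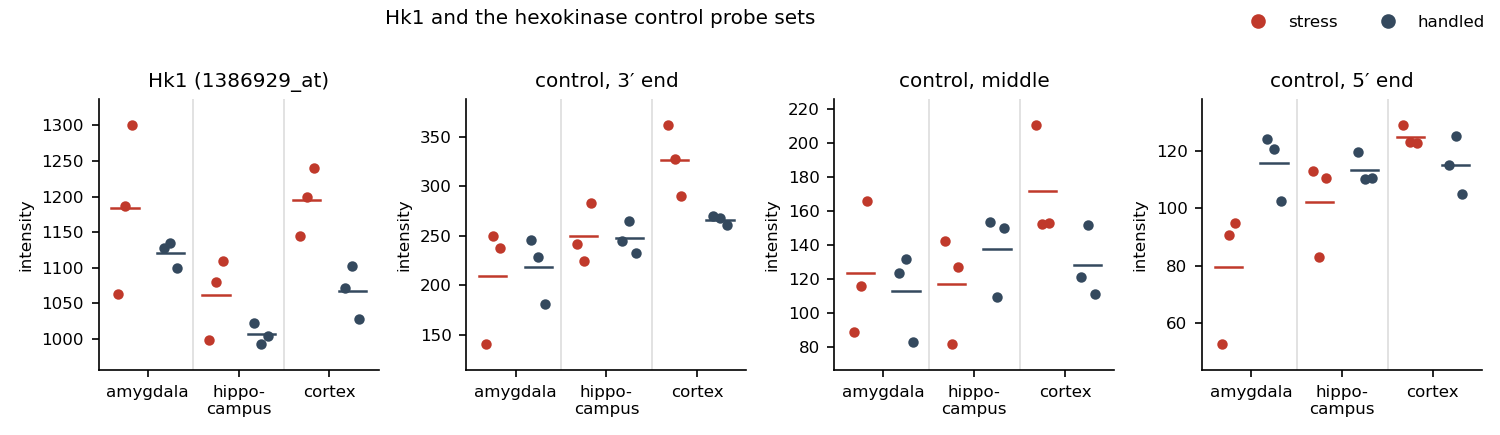
Intensity (linear axis, not starting at 0) of Hk1 1386929_at and of the hexokinase control probe sets for the 3′ end, middle and 5′ end, one point per array and a line at each group's mean, with stress left of handled in each region. In the amygdala the 5′ control reads 52.89, 90.65 and 94.94 on stress arrays, all below the handled arrays at 102.4 to 124.2.

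Pfkp, the platelet form of phosphofructokinase, which catalyses the committed step of glycolysis, was among the genes that differed most between regions. Its median over 6 arrays was 2008 in the amygdala (1897 to 2195), 1585 in the hippocampus (1537 to 1721) and 2286 in the cortex (2162 to 2375). The hippocampus arrays lay below all arrays of the amygdala and of the cortex, while the amygdala and cortex ranges overlapped. Pfkp was lower in hippocampus than in cortex by a log2 difference of -0.50 ± 0.039 (adjusted p = 3.23e-10 by limma), which is 0.709 times the cortex value. Pfkp was higher in amygdala than in hippocampus by 0.33 ± 0.039 (adjusted p = 2.53e-07), and lower in amygdala than in cortex by a difference of -0.16 ± 0.039 (adjusted p = 0.00266).

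Region accounted for 92.2% of the variance of Pfkp, and treatment for 3.07%. In the cortex Pfkp read 2375, 2303 and 2332 on stress arrays, against 2166, 2162 and 2268 on handled arrays, without overlap, and the difference of 0.087 ± 0.055 had an adjusted p of 0.647 by limma. In the amygdala it read 1914, 2195 and 2124 under stress, against 1976, 2039 and 1897 in handled rats. In the hippocampus it read 1721, 1583 and 1616 under stress, against 1577, 1537 and 1586 in handled rats. In both of these regions the groups overlapped. The 2 genes whose values tracked Pfkp most closely over the 18 arrays were Cdh13 (r = 0.977) and Stau2 (r = 0.968), correlations that rest on the same 3 regions and carry no test.

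The promoters of Pfkp, Aldoc and Ldha are shown because these genes gave the strongest results, Pfkp and Aldoc between regions and Ldha under stress. Capitals mark ACGTG or GCGTG on either strand, the core of the sites that the hypoxia factor HIF-1 is known to bind, and CACGTG holds ACGTG on both strands. Each window runs from 250 bases before to 50 bases after a transcript start in RefSeq (build GRCr8), on the strand of the gene. The Pfkp gene begins at 68639749 in RefSeq, which lies in its window but is not the start that this layout gives.
Pfkp promoter, chr17:68639563-68639862, plus strand: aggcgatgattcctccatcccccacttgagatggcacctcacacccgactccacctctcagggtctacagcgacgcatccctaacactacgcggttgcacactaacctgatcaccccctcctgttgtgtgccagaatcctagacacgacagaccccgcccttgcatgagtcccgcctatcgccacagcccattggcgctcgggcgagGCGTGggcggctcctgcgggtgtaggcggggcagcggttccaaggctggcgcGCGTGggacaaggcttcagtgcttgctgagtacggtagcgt
Aldoc promoter, chr10:63715294-63715593, plus strand: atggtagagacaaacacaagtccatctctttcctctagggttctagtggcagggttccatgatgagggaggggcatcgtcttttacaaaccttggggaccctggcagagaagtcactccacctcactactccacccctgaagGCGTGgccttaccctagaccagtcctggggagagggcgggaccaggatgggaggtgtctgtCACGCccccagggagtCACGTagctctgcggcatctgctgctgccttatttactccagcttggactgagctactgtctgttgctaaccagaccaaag
Ldha promoter, chr1:106507842-106508141, plus strand: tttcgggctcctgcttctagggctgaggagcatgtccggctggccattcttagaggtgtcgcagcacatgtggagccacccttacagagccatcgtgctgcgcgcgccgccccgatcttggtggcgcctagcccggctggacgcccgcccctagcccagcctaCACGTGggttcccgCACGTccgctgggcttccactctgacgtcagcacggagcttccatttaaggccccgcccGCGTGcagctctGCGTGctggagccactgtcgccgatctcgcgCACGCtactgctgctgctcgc
The Ldha window held 6 matches, with the palindromic CACGTG counted on each strand, the Aldoc window 3 and the Pfkp window 2. The window of Slc2a1, which passed in no comparison and is not shown, held 4. RefSeq gave 12 such windows for 9 of the 10 genes, and 8 of the 12 (66.7%) held at least 1 match, against 41.6% of 33469 rat promoters of the same length. These shares were not matched for GC content, and a match describes the letters only.

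Aldoc, the aldolase form of astrocytes, had the largest difference between regions of the 10 genes. Its median over 6 arrays was 3988 in the amygdala (3878 to 4177), 2836 in the hippocampus (2632 to 2971) and 2743 in the cortex (2575 to 2939). Every amygdala array lay above every array of the other regions, which overlapped each other. Aldoc was higher in amygdala than in cortex by 0.54 ± 0.040 (1.455-fold, adjusted p = 5.49e-10 by limma) and higher in amygdala than in hippocampus by 0.51 ± 0.040 (1.422-fold, adjusted p = 4.4e-10). Hippocampus and cortex differed by 0.034 ± 0.040 (95% interval -0.050 to 0.12, adjusted p = 0.561).

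Stress moved Aldoc little. It read 3887, 3934 and 4177 on amygdala stress arrays, against 3878, 4043 and 4114 on amygdala handled arrays, and the averaged stress difference was 0.019 ± 0.033 (95% interval -0.049 to 0.087, adjusted p = 0.821 by limma). Of 13 astrocyte markers tested, 7 were higher (14.9% of all tested probe sets) and 0 lower (13.7%) in amygdala than in cortex. In amygdala against hippocampus 6 were higher (21.8% of all) and 1 lower (18.2% of all). The one that was lower was Gfap, the astrocyte filament protein, at -0.99 ± 0.042. The summed intensity of these markers ran from 22318 to 23626 on amygdala stress arrays and from 23050 to 23434 on amygdala handled arrays, against 19665 to 20480 on cortex stress arrays and 19202 to 20201 on cortex handled arrays. On hippocampus arrays the sum ran from 20225 to 22413 under stress and from 21603 to 22252 in handled rats. The part of astrocyte number in the Aldoc values was not tested.

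Aldoa, the ubiquitous aldolase, was highest in the hippocampus. Its median was 6826 in the amygdala (6585 to 7254), 7361 in the hippocampus (7112 to 8067) and 6743 in the cortex (6267 to 7235). The 3 ranges overlapped. Aldoa was higher in hippocampus than in cortex by 0.16 ± 0.040 (adjusted p = 0.00321 by limma) and lower in amygdala than in hippocampus by a difference of -0.13 ± 0.040 (adjusted p = 0.0133). Without amygdala stress 1 and hippocampus handled 1 the last of these was -0.094 (adjusted p = 0.0852), and without a variance trend its adjusted p was 0.0671. With handled arrays only, hippocampus minus cortex was 0.12 ± 0.057 (adjusted p = 0.133), and amygdala minus hippocampus passed neither in stress arrays (adjusted p = 0.0686) nor in handled arrays (adjusted p = 0.14) alone. The direction of Aldoa depended on scaling. After quantile normalization hippocampus minus cortex was -0.069 (adjusted p = 0.0574) and amygdala minus cortex -0.17 (adjusted p = 9.04e-05), against 0.029 before it. Under stress the averaged difference of Aldoa was -0.032 ± 0.033 (adjusted p = 0.661), and after quantile normalization it was 0.083 (adjusted p = 0.038). No direction is given for Aldoa under stress.

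Tpi1, which interconverts the 2 triose phosphates made by aldolase, was highest in the cortex. Its median was 3493 in the amygdala (3380 to 3520), 3381 in the hippocampus (3250 to 3608) and 3796 in the cortex (3596 to 3972). The amygdala arrays lay below all cortex arrays, and the hippocampus range overlapped both. Tpi1 was lower in amygdala than in cortex by a difference of -0.13 ± 0.035 (adjusted p = 0.00591 by limma) and lower in hippocampus than in cortex by -0.16 ± 0.035 (adjusted p = 0.00066). The averaged stress difference was 0.026 ± 0.029 (adjusted p = 0.695), with overlapping groups in all 3 regions.

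Pgk1, which makes the first ATP of the pathway, was read by 2 bright probe sets. The probe set 1387361_s_at had a median of 1497 in the amygdala (1404 to 1794), 1909 in the hippocampus (1815 to 1955) and 1613 in the cortex (1570 to 1707). All its hippocampus arrays lay above all arrays of the other regions. It was higher in hippocampus than in cortex by 0.21 ± 0.043 (adjusted p = 0.000361 by limma) and lower in amygdala than in hippocampus by a difference of -0.31 ± 0.043 (adjusted p = 2.59e-06). The probe set 1388318_at gave -0.26 ± 0.062 for amygdala minus hippocampus (adjusted p = 0.00193) and 0.12 ± 0.062 for hippocampus minus cortex (adjusted p = 0.132). For amygdala minus cortex they gave -0.10 ± 0.043 (adjusted p = 0.0793) and -0.13 ± 0.062 (adjusted p = 0.114), and both passed without amygdala stress 2 (adjusted p = 0.00492 and 0.0293) and after median centring (adjusted p = 0.00798 and 0.0188). After quantile normalization 1388318_at passed there as well (adjusted p = 0.0204). The probe set 1388318_at passed for hippocampus minus cortex without hippocampus stress 3 (adjusted p = 0.0308) and for amygdala minus cortex without cortex stress 2 (adjusted p = 0.0396). The 2 probe sets had the highest correlation of the 55 member pairs over the 18 arrays, r = 0.832.

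Under stress Pgk1 1387361_s_at read 1939, 1955 and 1928 on hippocampus stress arrays, against 1890, 1815 and 1825 on hippocampus handled arrays. These did not overlap, as for Ldha there, where 7.12% of all tested probe sets lay wholly higher. The hippocampal difference was 0.074 ± 0.060 (adjusted p = 0.703 by limma). Averaged over the regions the differences were 0.089 ± 0.035 (adjusted p = 0.169) for 1387361_s_at and 0.11 ± 0.050 (adjusted p = 0.249) for 1388318_at. Glycolytic genes such as Pgk1 have processed pseudogenes in mammals, and whether the probes also read such copies was not tested.

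Eno2, the enolase form of neurons, was the gene with the lowest adjusted p in the amygdala. It read 3516, 3818 and 3662 on amygdala stress arrays, against 3228, 3327 and 3060 on amygdala handled arrays. The stress arrays all lay above the handled arrays, as for Ldha, where 8.13% of all tested probe sets did so. The difference was 0.19 ± 0.059 (95% interval 0.071 to 0.31, adjusted p = 0.0987 by limma). In the hippocampus it read 2844, 3369 and 2847 under stress, against 2867, 2735 and 2697 in handled rats, and in the cortex 3018, 2893 and 2996 under stress, against 3005, 2964 and 3013 in handled rats. The groups overlapped in both. One array, hippocampus stress 2, held the high value of 3369. Without it the amygdala difference was still 0.19, with an adjusted p of 0.0273 by limma. That array is no part of the amygdala comparison and bears on it through the spread that all groups share.

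Whether the Eno2 stress effect differed between regions was tested directly. The effect in the amygdala minus that in the cortex was 0.21 ± 0.083 (adjusted p = 0.412 by limma), the lowest adjusted p of the 11 probe sets. Of these, 0 passed, where 0.129% of all tested probe sets did. Between amygdala and hippocampus 0 of 11 passed (0.0483% of all, lowest adjusted p 0.882), and between hippocampus and cortex 0 of 11 passed (0.0859% of all, lowest adjusted p 0.919). At an unadjusted p under 0.05 there were 0, 2 and 0 probe sets for amygdala minus hippocampus, amygdala minus cortex and hippocampus minus cortex. These comparisons share stress effects pairwise. Of 14 neuron markers tested, 0 were higher and 1 lower under stress in the amygdala, where 2.4% of all tested probe sets passed.

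Eno2 also separated the amygdala from the other regions. Its median was 3422 in the amygdala (3060 to 3818), 2846 in the hippocampus (2697 to 3369) and 3001 in the cortex (2893 to 3018). The amygdala arrays lay above all cortex arrays and overlapped those of the hippocampus. Eno2 was higher in amygdala than in cortex by 0.20 ± 0.042 (adjusted p = 0.000839 by limma) and higher in amygdala than in hippocampus by 0.25 ± 0.042 (adjusted p = 4.13e-05). With handled arrays alone the amygdala minus cortex difference was 0.097 ± 0.059 (adjusted p = 0.309), and with stress arrays alone it was 0.30 ± 0.059 (adjusted p = 0.000813). Of the 14 neuron markers tested, 5 were higher (14.9% of all tested probe sets) and 3 lower (13.7%) in amygdala than in cortex. In amygdala against hippocampus 4 were higher (21.8% of all) and 9 lower (18.2% of all). The part of neurons in the Eno2 values was not tested.

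Ldha, the subunit of lactate dehydrogenase that favours making lactate from pyruvate, was the one member called for stress. It read 1793, 1757 and 1769 on amygdala stress arrays, against 1557, 1633 and 1554 on amygdala handled arrays. In the hippocampus it read 2060, 1928 and 1764 under stress, against 1733, 1669 and 1713 in handled rats. In the cortex it read 1995, 2115 and 2081 under stress, against 1965, 1934 and 1968 in handled rats. Stress arrays lay above handled arrays without overlap in all 3 regions, which held for 66 of the 18625 tested probe sets (0.354%).

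The stress differences of Ldha were 0.16 ± 0.054 in the amygdala (adjusted p = 0.137), 0.17 ± 0.054 in the hippocampus (adjusted p = 0.231) and 0.076 ± 0.054 in the cortex (adjusted p = 0.69), by limma. Averaged, this was a rise of 0.14 ± 0.031 (1.098-fold, 95% interval 0.071 to 0.20, adjusted p = 0.0118). The call was lost when no trend of the variance with intensity was fitted (adjusted p = 0.073), and it was kept without each of the 18 arrays in turn. Treatment accounted for 24.9% of the variance of Ldha and region for 62.4%.

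Markers of other cells moved in the same arrays. Both red blood cell markers were lower under stress averaged over the regions, and their summed intensity ran from 1526 to 1827 on amygdala stress arrays, against 2075 to 2304 on amygdala handled arrays. It ran from 1086 to 1312 on hippocampus stress arrays, against 2022 to 2187 on hippocampus handled arrays, and from 1933 to 2092 on cortex stress arrays, against 3117 to 3355 on cortex handled arrays. Of 10 meningeal fibroblast markers tested, 6 were lower on average under stress and 0 higher, where 4.66% of all tested probe sets passed. By region 6 were lower in the cortex, 1 in the hippocampus and 0 in the amygdala. The meningeal sum in the amygdala ran from 1261 to 1306 on stress arrays, against 1221 to 1366 on handled arrays. In the hippocampus the choroid plexus sum ran from 3700 to 3911 on stress arrays, against 1331 to 1522 on handled arrays. The part of any of these in the Ldha result was not tested.

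**Figure D3:**
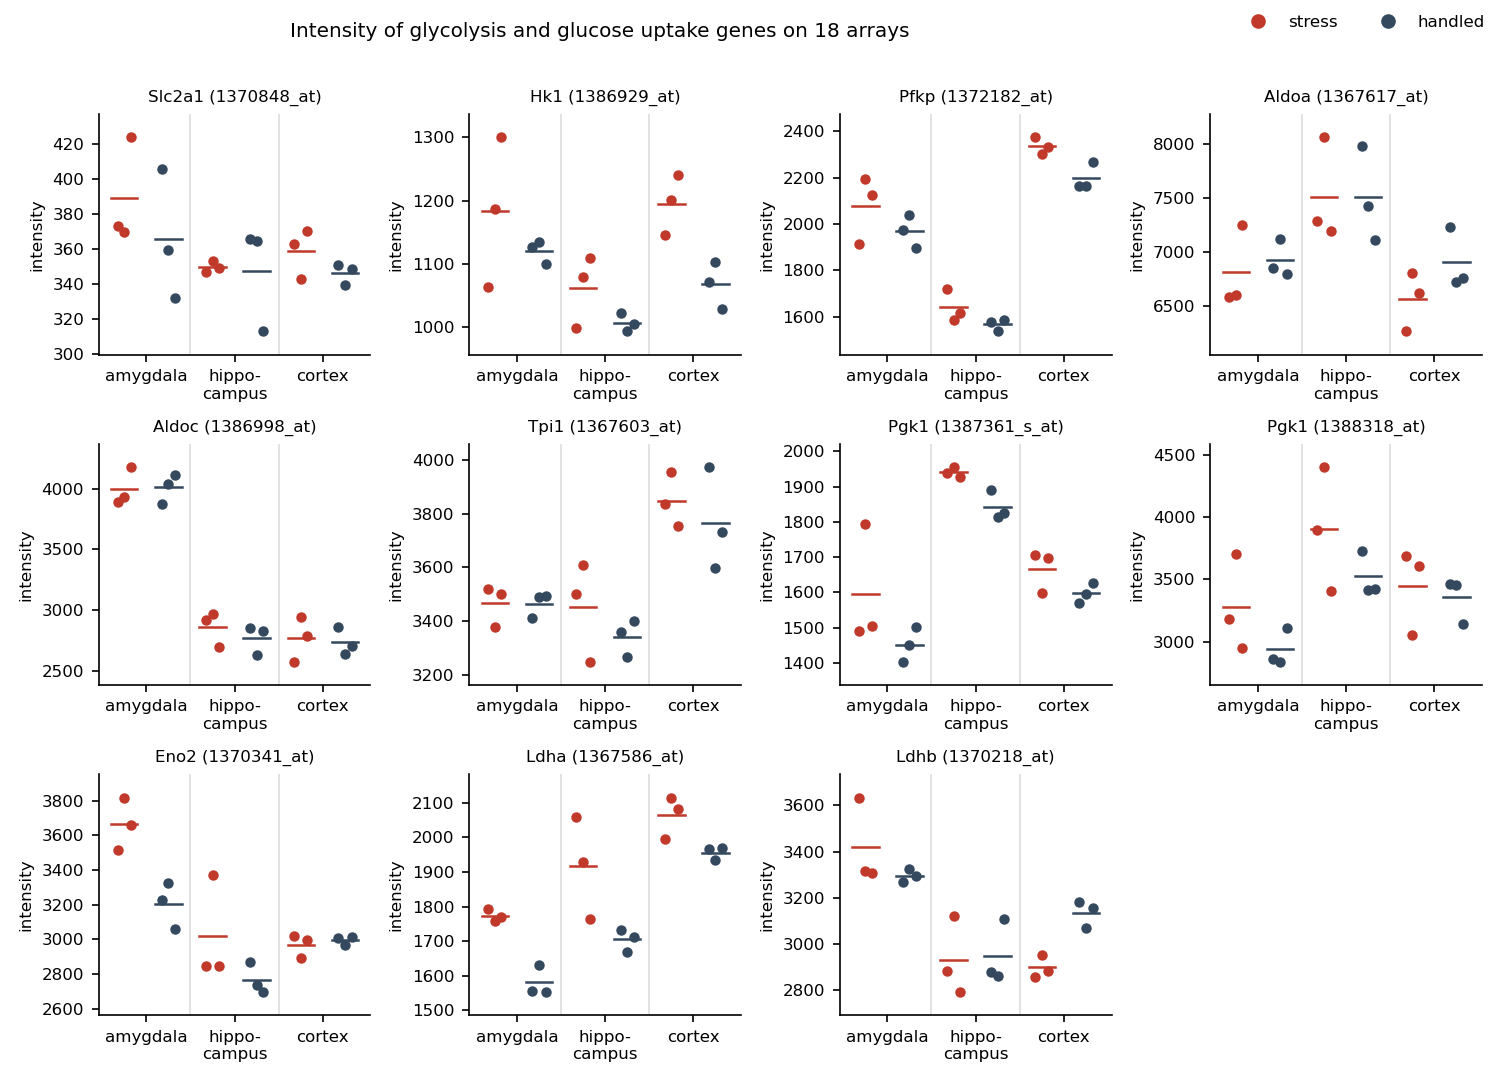
Intensity (linear axes, not starting at 0) of the 11 tested probe sets, one point per array and a line at each group's mean, with stress left of handled in amygdala, hippocampus and cortex. Ldha lies higher under stress in each region without overlap, Aldoc separates the amygdala and Pfkp the hippocampus from the other regions.

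Between regions, Ldha was highest in the cortex. Its median was 1695 in the amygdala (1554 to 1793), 1749 in the hippocampus (1669 to 2060) and 1981 in the cortex (1934 to 2115). The amygdala arrays lay below all cortex arrays, and the hippocampus range overlapped both. Ldha was lower in amygdala than in cortex by a difference of -0.26 ± 0.038 (adjusted p = 1.58e-05 by limma), lower in hippocampus than in cortex by -0.15 ± 0.038 (adjusted p = 0.00271) and lower in amygdala than in hippocampus by -0.11 ± 0.038 (adjusted p = 0.0263). Without amygdala stress 1 and hippocampus handled 1 the last of these was -0.11 with an adjusted p of 0.0503, and after quantile normalization it was -0.056 with an adjusted p of 0.233. It was also lost without hippocampus stress 1 (adjusted p = 0.0921), amygdala handled 1 (adjusted p = 0.0556) or amygdala handled 3 (adjusted p = 0.0543). The same call was lost without a variance trend (adjusted p = 0.0821) and with only the arrays of the regions compared (adjusted p = 0.0625). With stress arrays alone, hippocampus minus cortex was -0.11 ± 0.054 (adjusted p = 0.161).

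Ldhb, the subunit that favours turning lactate back into pyruvate, was highest in the amygdala. Its median was 3311 in the amygdala (3270 to 3633), 2882 in the hippocampus (2794 to 3121) and 3011 in the cortex (2860 to 3181). All amygdala arrays lay above all arrays of the other regions, which overlapped each other. Ldhb was higher in amygdala than in cortex by 0.15 ± 0.037 (adjusted p = 0.0031 by limma) and higher in amygdala than in hippocampus by 0.19 ± 0.037 (adjusted p = 0.000229). After median centring the amygdala minus cortex difference was 0.080 (adjusted p = 0.162).

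In the cortex Ldhb was the one member whose stress arrays lay wholly below the handled arrays, where 11.2% of all tested probe sets did so. Ldhb read 2860, 2955 and 2884 on cortex stress arrays, against 3181, 3068 and 3157 on cortex handled arrays, a difference of -0.11 ± 0.052 (adjusted p = 0.466 by limma). In the amygdala it read 3633, 3315 and 3308 under stress, against 3270, 3325 and 3292 in handled rats, and in the hippocampus 2885, 3121 and 2794 under stress, against 2879, 2861 and 3110 in handled rats, with overlap in both.

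The log2 difference between the Ldha and the Ldhb probe set on the same array was also read, a measure chosen after the values were seen and given without a test. Its own level has no meaning, since probe sets differ in brightness, but its change between groups does not depend on an array's scaling factor. It was -0.95 ± 0.064 on amygdala stress arrays, against -1.06 ± 0.030 on amygdala handled arrays (SD, n = 3 each). It was -0.62 ± 0.11 on hippocampus stress arrays, against -0.79 ± 0.065 on hippocampus handled arrays, and -0.49 ± 0.026 on cortex stress arrays, against -0.68 ± 0.015 on cortex handled arrays. The amygdala groups came close, with the lowest stress array at -1.02 and the highest handled array at -1.03. Ldha alone already separated the groups in each region, so this adds no separate evidence. The same difference for Aldoc and Aldoa was -0.77 ± 0.025 on amygdala stress arrays, against -0.79 ± 0.055 on amygdala handled arrays, -1.39 ± 0.063 on hippocampus stress arrays, against -1.44 ± 0.092 on hippocampus handled arrays, and -1.25 ± 0.036 on cortex stress arrays, against -1.34 ± 0.013 on cortex handled arrays.

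Counted over all members, 6 of 11 probe sets were called between amygdala and cortex, 3 higher and 3 lower in amygdala, where 28.6% of all tested probe sets were called, 14.9% higher and 13.7% lower. Between hippocampus and cortex 6 of 11 were called (36.9% of all), 2 higher (17.4% of all) and 4 lower (19.5% of all) in hippocampus. Between amygdala and hippocampus 9 of 11 were called (39.9% of all), 5 higher (21.8% of all) and 4 lower (18.2% of all) in amygdala. The 6 arrays of one region did not overlap the 6 of the other for 5, 2 and 4 probe sets in these comparisons, against 13.6%, 21.3% and 19% of all tested probe sets. The 3 comparisons share arrays pairwise, Pgk1 counts with 2 probe sets, and the shares of all were not matched for the members' brightness. Whether the members exceed probe sets of like brightness was not tested. With handled arrays only, 2 of the 6 calls between amygdala and cortex were left, Ldha at -0.30 ± 0.054 (adjusted p = 0.000314 by limma) and Aldoc at 0.55 ± 0.057 (adjusted p = 2.59e-07). In the other comparisons, the calls of Ldha, Aldoa and Hk1 between amygdala and hippocampus passed in neither treatment alone, nor did that of Hk1 between hippocampus and cortex. Between hippocampus and cortex Ldha passed with handled but not stress arrays alone, and Aldoa with stress but not handled arrays alone.

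Markers of other cells and signs of RNA length moved with region in the same arrays. Of 11 oligodendrocyte markers tested, 11 were higher in amygdala than in cortex (median difference 0.58), where 14.9% of all tested probe sets were. In hippocampus 11 were higher than in cortex (median 1.06, 17.4% of all). In amygdala 10 of these oligodendrocyte markers were lower than in hippocampus (18.2% of all). Their summed intensity ran from 16118 to 17656 on amygdala arrays, from 18272 to 24117 on hippocampus arrays and from 11110 to 11886 on cortex arrays. Of 9 microglia markers tested, 9 were higher in amygdala than in hippocampus (21.8% of all tested probe sets). In amygdala 5 were higher than in cortex (14.9% of all), and in hippocampus 4 were lower than in cortex (19.5% of all). The 3′ minus 5′ difference of beta-actin was 2.16 ± 0.24 on amygdala stress arrays and 2.08 ± 0.080 on amygdala handled arrays, against 1.62 ± 0.044 on cortex stress arrays and 1.67 ± 0.052 on cortex handled arrays (SD, n = 3 each). On hippocampus arrays it was 1.61 ± 0.31 under stress and 1.55 ± 0.23 in handled rats. For GAPDH, at 0.45 in both amygdala groups, it was 0.23 ± 0.13 on hippocampus stress arrays, 0.26 ± 0.10 on hippocampus handled arrays, 0.24 ± 0.039 on cortex stress arrays and 0.29 ± 0.038 on cortex handled arrays. For both controls every amygdala array lay above every array of the other regions. The hexokinase control did not share this order. Its amygdala handled arrays, at 0.83 to 0.99, lay below every hippocampus and cortex array. Its amygdala stress arrays, at 1.32 to 1.46, overlapped those of cortex stress at 1.24 to 1.49 and hippocampus stress at 1.10 to 1.44. The part of cell types and of RNA length in the region differences was not tested.

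Hk1 had a median of 1131 in the amygdala (1063 to 1300), 1013 in the hippocampus (993.0 to 1110) and 1124 in the cortex (1028 to 1240), and the 3 ranges overlapped. It was lower in hippocampus than in cortex by a difference of -0.13 ± 0.046 (adjusted p = 0.0351 by limma) and higher in amygdala than in hippocampus by 0.15 ± 0.046 (adjusted p = 0.0109). After median centring these were -0.13 (adjusted p = 0.0541) and 0.078 (adjusted p = 0.231). The hippocampus minus cortex call of Hk1 was also lost without any one of hippocampus stress 1, hippocampus handled 2 or 3, cortex stress 2 or 3, and cortex handled 1 or 2, with adjusted p between 0.0561 and 0.0997. The same call was lost without a variance trend (adjusted p = 0.0854) and without the intensity filter (adjusted p = 0.052).

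**Figure D4:**
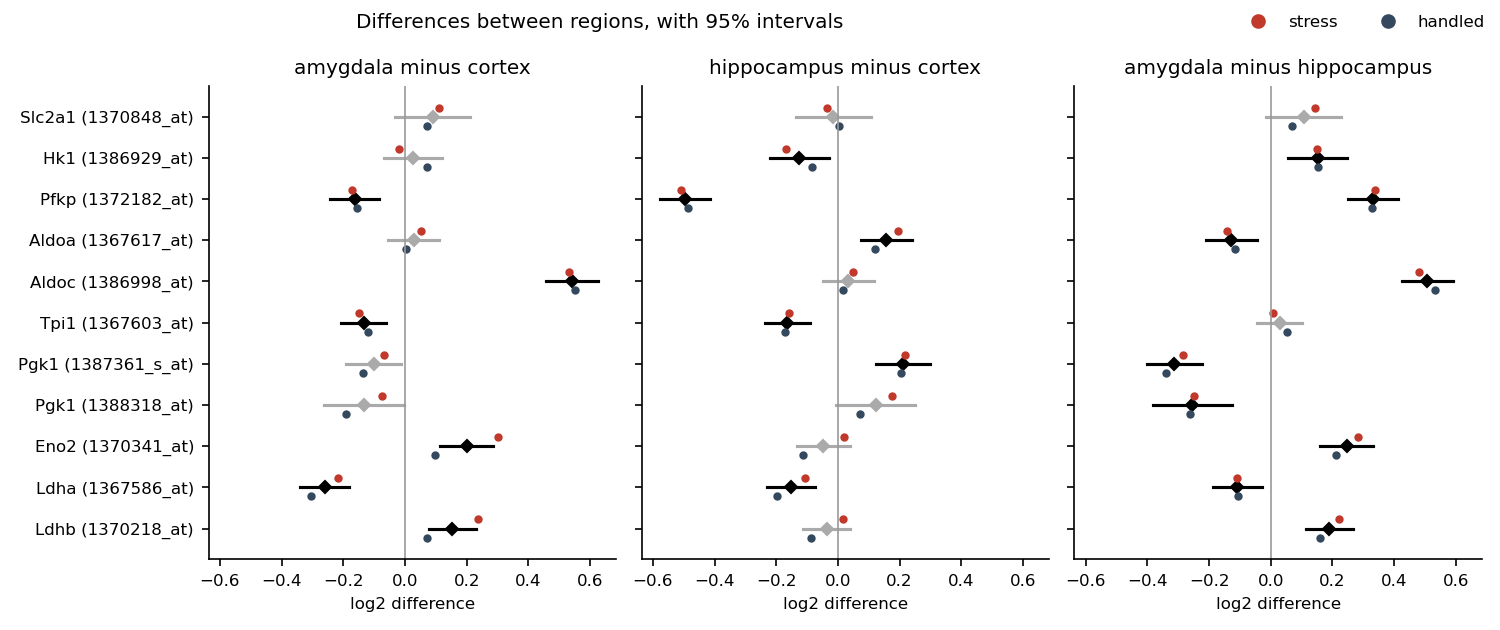
Log2 difference in intensity between regions for the 11 tested probe sets (rows), averaged over stress and handled arrays, with 95% intervals from limma; black diamonds have an adjusted p under 0.05, grey ones do not, and small dots give the difference in stress arrays alone and in handled arrays alone. Aldoc lies highest where the amygdala is compared, at 0.54 and 0.51, and Pfkp lowest in hippocampus minus cortex, at -0.50.

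Over the 18 arrays the 55 pairs of member probe sets had correlations between -0.745 (Aldoa and Pfkp) and 0.832 with a median of -0.012. The genes most like each member were sought among all named genes by Pearson's r over the same arrays, which share region differences and scaling. For Aldoc they were Nr2f2 (r = 0.966) and Lmo3 (r = 0.964), for Aldoa Dnm1 (r = 0.92) and Snap25 (r = 0.898), and for Tpi1 Scp2 (r = 0.901) and Tenm3 (r = 0.887). For Ldhb they were Rps3a (r = 0.935) and Marchf3 (r = 0.908), for Ldha Cyrib (r = 0.88) and Sirt5 (r = 0.854), and for Eno2 Fam107a (r = 0.892) and Rasl10b (r = 0.885). Slc2a1, with Ttc27 at r = 0.798, had the lowest best match of the 10 genes.

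The hexokinase controls were also read between regions. For amygdala minus cortex the 3′ control was at -0.46 ± 0.10 (adjusted p = 0.00201 by limma) and the 5′ control at -0.29 ± 0.11 (adjusted p = 0.0467). The middle control was at -0.31 ± 0.14 (adjusted p = 0.111), while Hk1 1386929_at was at 0.026 ± 0.046 (adjusted p = 0.716). For hippocampus minus cortex, where Hk1 was called lower, the 3′, middle and 5′ controls were at -0.23 ± 0.10, -0.21 ± 0.14 and -0.14 ± 0.11, and none of them passed (adjusted p = 0.0869, 0.272 and 0.346). For amygdala minus hippocampus Hk1 was called higher, at 0.15 ± 0.046 (adjusted p = 0.0109 by limma). There the 3′, middle and 5′ controls were at -0.22 ± 0.10, -0.10 ± 0.14 and -0.15 ± 0.11, opposite in sign to Hk1. None of these controls passed (adjusted p = 0.0962, 0.618 and 0.278). The controls came from a fit that kept the control probe sets.

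Further genes of glucose metabolism were read from 8 lists holding 112 genes, of which 78 were tested. Under stress 0 passed in the amygdala, 1 in the hippocampus, 1 in the cortex and 4 averaged over the regions. The 4 are 5.13% of the tested listed genes, near the 4.66% of all tested probe sets. Got1, the cytosolic aminotransferase of the malate-aspartate shuttle, which carries NADH electrons into mitochondria, read 1102, 1164 and 1097 on cortex stress arrays, against 895.8, 889.7 and 755.9 on cortex handled arrays. It rose by 0.40 ± 0.075 in the cortex (adjusted p = 0.0124 by limma) and by 0.27 ± 0.043 on average (adjusted p = 0.000537). Slc2a13, a myo-inositol transporter of the glucose transporter family, read 1177, 1146 and 1121 on hippocampus stress arrays, against 925.7, 966.0 and 953.3 on hippocampus handled arrays. It rose by 0.27 ± 0.055 there (adjusted p = 0.0258) and by 0.18 ± 0.032 on average (adjusted p = 0.00113).

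The 2 remaining calls concerned the entry of pyruvate into mitochondria. Averaged over the regions Dld, a subunit of pyruvate dehydrogenase, rose by 0.15 ± 0.044 (adjusted p = 0.0494 by limma), and Mpc2, a subunit of the mitochondrial pyruvate carrier, had a difference of -0.15 ± 0.040 (adjusted p = 0.0329). The other glycolytic enzymes numbered 8 tested, and 0 passed for stress in any region or on average. Of the 78 listed genes 0 passed for a difference between regions in the stress effect.

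Between regions 26 of 78 passed for amygdala minus cortex (33.3%, against 28.6% of all tested probe sets), 43 of 78 for hippocampus minus cortex (55.1%, against 36.9%) and 43 of 78 for amygdala minus hippocampus (55.1%, against 39.9%). The genes of pyruvate entry were lower in amygdala than in hippocampus for 5 of 7 tested and higher for 0, where 18.2% of all tested probe sets were lower, among them Pdhb at -0.35 ± 0.064 and Mpc1 at -0.33 ± 0.046. The NADH shuttle genes were lower for 6 of 9 and higher for 0, with Got1 at -0.47 ± 0.053 and Mdh1 at -0.29 ± 0.037. In hippocampus against cortex 17.4% of all tested probe sets were higher and 19.5% lower. Of the 8 glycolytic enzymes tested outside the 10 genes, 4 were higher there and 2 lower, the latter near the share of all. The lower ones were Gpi, which follows hexokinase, at -0.28 ± 0.046 (adjusted p = 2.69e-05 by limma), and Bpgm at -0.48 ± 0.050 (adjusted p = 3.81e-08). The higher ones were Eno1 at 0.19 ± 0.038 (adjusted p = 0.00029), Adpgk at 0.27 ± 0.10 (adjusted p = 0.0414), Pgam1 at 0.12 ± 0.038 (adjusted p = 0.0133) and Pfkm, the muscle form of phosphofructokinase, at 0.17 ± 0.044 (adjusted p = 0.00369), where Pfkp was lower. Of the regulators, Pfkfb3, which makes the activator of phosphofructokinase, was higher in hippocampus than in cortex by 0.83 ± 0.12 (adjusted p = 6.4e-06).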

How the data were processed

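Total RNA from rat amygdala, hippocampus and cortex, under chronic immobilization stress or handling, was measured on 18 arrays. The authors deposited 1 linear intensity for each probe set on each array. How probes were summarised is not given in the sources used here, and from the values the authors had scaled each array to the same mean after trimming 2% from each tail. Arrays have no read depth, and their number limits the precision. Gene names came from the annotation of the platform. Of 31099 probe sets, 20832 had 1 symbol, 436 several and 9831 none, and the tests used none of the 57 control probe sets.

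Values were analysed as log2(intensity + 16). Differences between 2 probe sets on the same array used log2(intensity) without the 16. Probe sets at or above the 40th percentile of the mean were kept (18625). With limma 3.58.1 (R 4.3.3), 6 group means were estimated from the 18 arrays under a variance trend (12 residual and 10.2 prior degrees of freedom), two-sided tests and Benjamini-Hochberg adjustment over all probe sets of a contrast. The fit was tested on simulated data. The contrasts were stress minus handled by region and averaged, the differences between these, and the regions averaged over treatments. The members and lists were chosen with earlier results of these data known. Named were all members, the listed pathway genes that passed (up to 10 per list), the 2 genes of highest correlation with a member, and control and marker genes. Alternatives were other offsets, filters and scalings, no variance trend, only the regions compared, a block on the replicate number, each array left out, and, chosen after seeing the data, control probe sets kept and the 2 arrays of lowest correlation left out.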

Additional observations from a re-analysis of the deposited data

Results flagged for a closer look

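The hexokinase control probe sets, which the comparisons between groups leave out, read differently at the ends of the transcript. The mean 3′ minus 5′ difference on the log2 scale was 1.3999 in amygdala stress arrays, against 0.9126 in amygdala handled arrays, and the 3 arrays of each group did not overlap. It stood out as a signal outside the main measurement and above the level in the handled arrays. In the amygdala GAPDH was at 0.4496 under stress, against 0.4518 in handled arrays, and beta-actin at 2.1593, against 2.0849. The groups overlapped for both. Hexokinase in the amygdala was the only one of these controls, in any region, to lie wholly higher under stress, and no test was made.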

How the results depend on the processing

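Over the alternatives, 3103 of 3256 refitted single values kept their direction and their side of the threshold. A further 100 uncalled values changed sign, 36 calls were lost, 14 were gained and 3 values were reversed. Of the 22 calls, 11 held in every alternative. The count for the averaged stress effect, 1, was 3 after quantile normalization, 0 without a variance trend and 3 without amygdala stress 1 and hippocampus handled 1, where Eno2 (adjusted p = 0.0493) and Hk1 (adjusted p = 0.0278) were added. The count for amygdala minus cortex, 6, was 2 with handled arrays only. The reversed values were those of Aldoa after quantile normalization, at 0.083 for averaged stress, -0.17 for amygdala minus cortex and -0.069 for hippocampus minus cortex. Their cause was not tested. Leaving out each array in turn gave 0 to 1 calls for stress in the amygdala, 1 to 2 for averaged stress, 6 to 8 for amygdala minus cortex, 5 to 7 for hippocampus minus cortex, 8 to 9 for amygdala minus hippocampus, and 0 to 0 for the rest. Same-numbered arrays correlated between -0.04 and 0.1 in their deviations, so the numbers were not taken to pair the samples. With the replicate number as a block the counts were 0, 0, 0, 1, 0, 0, 0, 6, 6 and 9, as without it.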
